A study of Homo sapiens with 16 samples.

Results

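The genes described here are HLA-B, HLA-C, HLA-E, B2M, TAP1, TAP2, TAPBP, ERAP1 and NLRC5, 9 of the 60642 gene symbols in the deposited table. They build, load or switch on the major histocompatibility complex (MHC) class I molecule. They were chosen by name for that role, though with earlier results of these data known. All 9 were among the 16636 genes tested. Those genes reached 1 TPM (a transcript level scaled for gene length and library total) in at least 2 of 16 libraries. The libraries are bulk RNA sequencing of LNCaP, a human prostate cancer line that responds to androgens. Cells were grown for 72 h with 5% fetal serum and then for 48 h with 5% charcoal-stripped serum, which is poor in androgen, so every group below shares this depletion. Treatment lasted 48 h in 8 groups of 2 biological replicates. VEH received ethanol and DMSO, the solvents of the drugs, and DHT received 10 nM dihydrotestosterone, an androgen. BIC.VEH, ENZ.VEH and APA.VEH received 10 µM of bicalutamide, enzalutamide or apalutamide (called ARN in the labels) without DHT, and BIC.DHT, ENZ.DHT and APA.DHT received the same antagonist dose together with 10 nM DHT. These drugs compete with androgens for the androgen receptor. All libraries come from 1 cell line, without stroma or immune cells around it.

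A class I molecule is a heavy chain (HLA-B, HLA-C, HLA-E and others) bound to the light chain beta-2-microglobulin, encoded by B2M, and to a short peptide. The peptides are cut from cytosolic proteins by the proteasome, pumped into the endoplasmic reticulum by the transporter made of TAP1 and TAP2, trimmed there by the aminopeptidase ERAP1, and fitted onto the heavy chain with the help of tapasin, the product of TAPBP. Cytotoxic T cells read the finished complex at the cell surface, and NK cells read HLA-E and its relatives. NLRC5 is a transactivator that works with the RFX, CREB/ATF and NF-Y factors at an upstream enhancer of these genes, and interferons act on many of them through factors such as those of the IRF family.

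The results turn on the heavy chain genes and tapasin, which were lower with DHT, and B2M, which was higher. With the deposited TPM and all libraries, each passed the threshold only with replicates paired. The 250 bases before the start of 4 of these genes are therefore shown. They are RefSeq promoter sequences of GRCh38.p14 on the strand of the gene, 5′ to 3′. Capitals mark matches on either strand to TGACG (the core of the X2 or CRE half-site), CCAAT (the Y box) or an interferon-stimulated response element (ISRE, GAAA and GAAA separated by any 2 bases). The letters are those of the reference haplotype, and LNCaP alleles may differ.
HLA-B, chr6:31357180-31357429, minus strand: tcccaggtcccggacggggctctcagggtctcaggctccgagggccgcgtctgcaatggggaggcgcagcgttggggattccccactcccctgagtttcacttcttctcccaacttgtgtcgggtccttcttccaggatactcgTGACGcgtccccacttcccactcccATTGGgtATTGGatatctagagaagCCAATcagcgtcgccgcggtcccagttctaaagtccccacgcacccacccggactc
HLA-C, chr6:31272093-31272342, minus strand: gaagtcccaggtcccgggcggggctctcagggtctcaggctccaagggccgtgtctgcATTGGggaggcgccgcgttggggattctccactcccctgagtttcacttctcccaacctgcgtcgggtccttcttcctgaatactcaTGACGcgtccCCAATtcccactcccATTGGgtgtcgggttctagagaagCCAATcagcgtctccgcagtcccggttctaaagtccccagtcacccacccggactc
TAPBP, chr6:33314079-33314328, minus strand: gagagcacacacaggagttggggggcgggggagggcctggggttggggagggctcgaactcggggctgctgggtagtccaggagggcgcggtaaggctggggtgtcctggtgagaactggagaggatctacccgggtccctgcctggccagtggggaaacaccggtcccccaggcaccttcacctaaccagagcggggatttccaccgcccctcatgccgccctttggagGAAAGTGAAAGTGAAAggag
B2M, chr15:44711267-44711516, plus strand: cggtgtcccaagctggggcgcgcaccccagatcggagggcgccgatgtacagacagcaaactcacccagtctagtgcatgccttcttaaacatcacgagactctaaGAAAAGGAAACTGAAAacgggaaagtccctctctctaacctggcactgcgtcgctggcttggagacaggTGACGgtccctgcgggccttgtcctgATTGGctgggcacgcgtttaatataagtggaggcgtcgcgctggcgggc
The HLA-B and HLA-C windows each held 1 TGACG, 106 and 105 bases before the start, and 3 and 4 copies of CCAAT on either strand. B2M held 1 TGACG, 1 CCAAT and 2 overlapping ISRE matches, which begin 144 and 138 bases before the start. TAPBP held 2 overlapping ISRE matches, 20 and 14 bases before the start, and neither of the other motifs. The table held such windows for 7 of the 9 genes, in 9 entries since TAP1 and ERAP1 have 2 each, and HLA-E and NLRC5 had none. ISRE matches lay in 4 of the 9 entries (B2M, TAP1, TAP2 and TAPBP), against 3.02% of 35116 promoters of the same length. TGACG lay in 4 entries against 21.2% of promoters, and CCAAT in 5 against 32%. The gamma-activated site (TTC and GAA separated by any 3 bases) lay in 1 entry, of TAP1, against 6.57%. The full CRE (TGACG followed by TCA, which contains the half-site) lay in no entry and in 1.65% of promoters, and a 13-base androgen response element (GNACA and TGTNC separated by any 3 bases) lay in no entry and in 0.327%. A match is a description of the letters and not a shown binding site, and an absent match says nothing of the factor.

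Androgen targets followed the treatment labels. KLK3, which encodes prostate-specific antigen, had 53.0 and 24.0 TPM without DHT (VEH) against 4102.3 and 2422.4 TPM with it, a rise of 6.42 ± 0.64 (SE) on the log2 scale with an adjusted p of 0.00016 in limma. TMPRSS2 and FKBP5, other androgen receptor targets, rose by 3.15 ± 0.32 and 2.68 ± 0.24. All 7 luminal prostate markers reached 1 TPM, with sums of 2340 to 7410 TPM per library. The basal markers KRT5 and TP63 summed to at most 0.16 TPM and 6 immune cell markers to at most 0.64 TPM, with CD3E and MS4A1 listed at 0 in every library. Of 4 stromal markers COL1A1 alone passed 1 TPM, and it fell with DHT (−1.07 ± 0.18, adjusted p = 0.0036). Mitochondrial genes took 14.7% of TPM in DHT replicate 2 and 22.3% in DHT replicate 1, the extremes of the 16 libraries. TPM keeps no record of depth, and the labels give only an approximate 40 M read pairs per sample. What part these library differences have in the results was not tested.

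**Figure D1:**
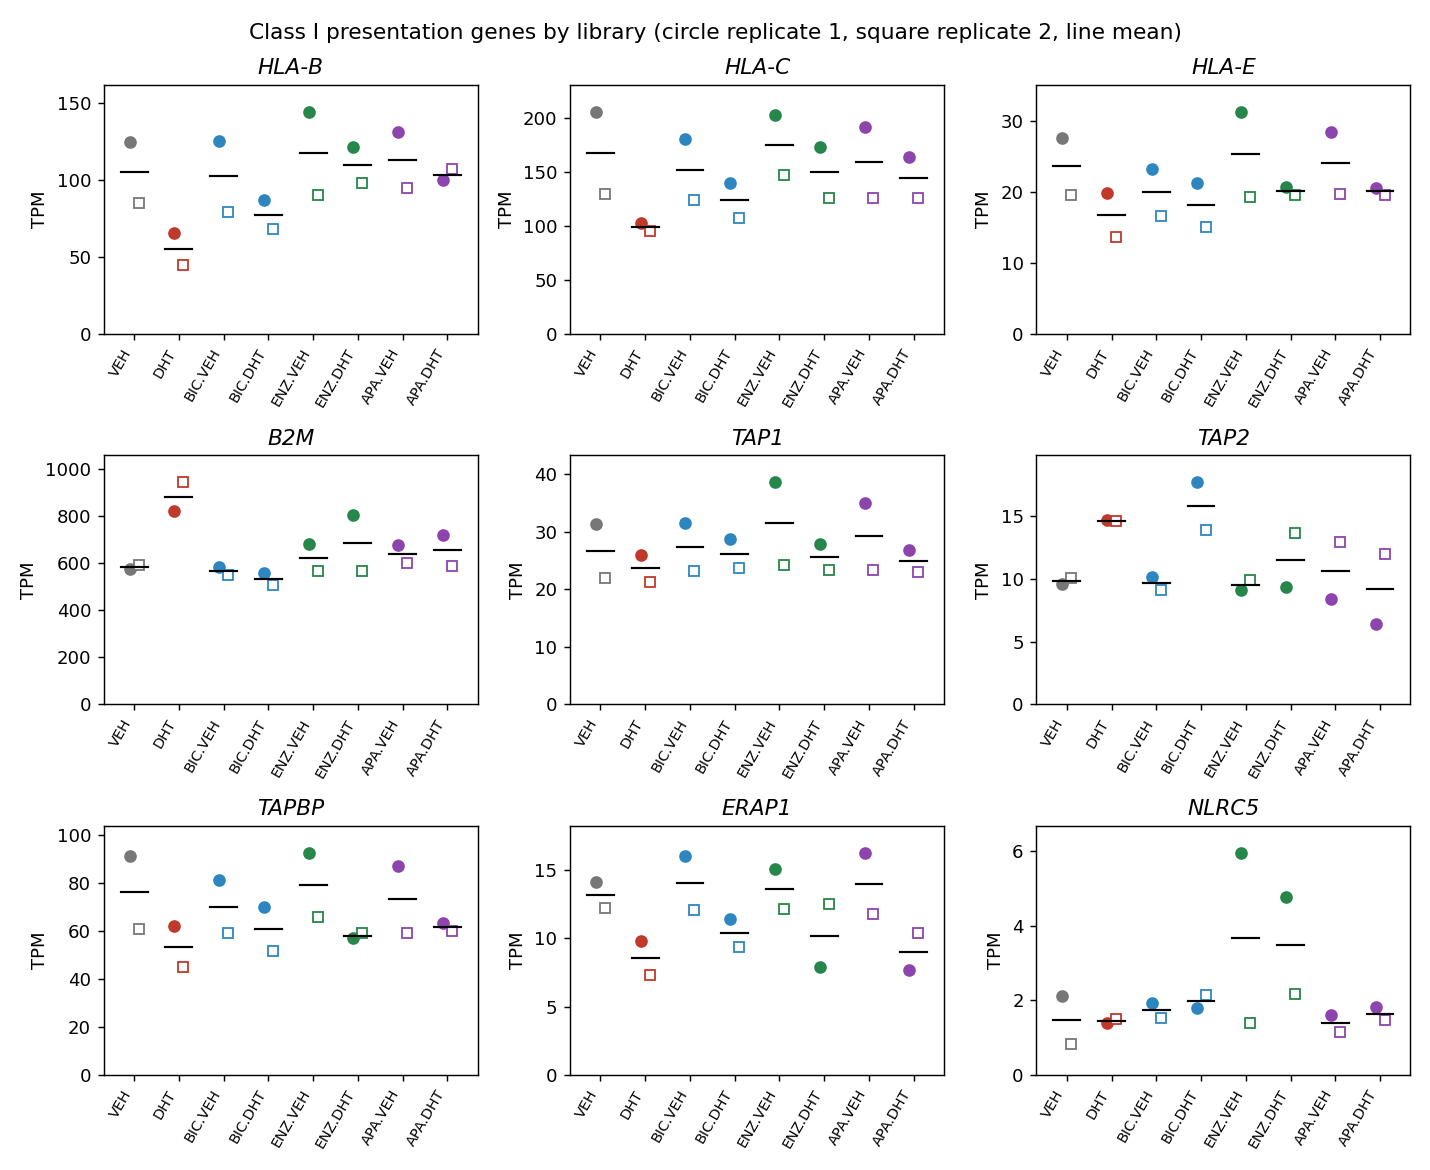
TPM of the 9 genes (one panel each, y axis from 0) in the 8 groups; circles are replicate 1, squares replicate 2 and lines the mean of 2. The 2 DHT libraries are the lowest of 16 for HLA-B and HLA-C and the highest for B2M, and replicate 1 lies above replicate 2 in all 8 groups for HLA-C, HLA-E and TAP1.

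TPM is a level per transcript length, so the 9 genes can be set side by side. B2M stood highest, at a median of 590.4 TPM over the 16 libraries (505.89 to 945.32), at the 99th percentile of tested genes by mean. HLA-C followed at 134.7 TPM and HLA-B at 96.1 TPM, above tapasin at 61.3 TPM. TAP1, HLA-E, ERAP1 and TAP2 had medians of 25.1, 19.7, 11.9 and 10.1 TPM, and NLRC5 the lowest at 1.70 TPM, the 19.9th percentile. Replicate 1 was above replicate 2 in 8 of 8 groups for HLA-C, HLA-E and TAP1 and in 7 of 8 for HLA-B and TAPBP, by medians of 0.46, 0.47, 0.35, 0.51 and 0.45 on the log2 scale. For TAP2 it was above in 3 of 8. The replicate numbers pair libraries across groups by the check given with the methods. Each comparison is therefore stated without and, where it changes a call, with the replicate number as a block. Standard errors (±) and intervals are those of the fit without the block throughout, unless stated.

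The first question was what DHT alone did to these genes. Without the block none of the 9 passed an adjusted p of 0.05, where 10.3% of all tested genes did, and 4 of the 9 had an unadjusted p under 0.05 against 25.1% of all genes. With the block 5 of the 9 passed, against 27.4% of all genes: HLA-B, HLA-C, HLA-E and TAPBP were lower, where 16.8% of all genes were called lower, and B2M was higher, where 10.6% were. The median log2 fold change of the 9 was −0.47, against −0.10 over all tested genes. With 9 genes, and with that background, the counts describe these genes and set them apart from no other list. In bulk RNA, fewer cells of a kind and less RNA per cell cannot be told apart.

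HLA-B (chr6:31353875-31357179), a classical heavy chain, was at 124.53 and 84.97 TPM in VEH and at 65.72 and 44.41 TPM in DHT. The 2 DHT libraries were the lowest of the 16 and did not overlap VEH. The log2 fold change of TPM + 1 was −0.92 ± 0.31 (SE, 95% interval −1.59 to −0.24), with an adjusted p of 0.085 without the block and 0.0018 with it. The drop was −0.91 between the libraries numbered 1 and −0.92 between those numbered 2. In the other groups HLA-B was at 125.37 and 79.13 TPM in BIC.VEH, at 86.71 and 67.93 TPM in BIC.DHT, at 144.16 and 90.26 TPM in ENZ.VEH and at 120.95 and 97.71 TPM in ENZ.DHT. In APA.VEH it was at 130.75 and 94.40 TPM and in APA.DHT at 99.50 and 107.10 TPM. Ordered by group mean, DHT (55.1 TPM) came first and BIC.DHT (77.3 TPM) next without overlap, and from there to ENZ.VEH (117.2 TPM) every pair of neighbours overlapped.

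HLA-C (chr6:31268749-31272092), another classical heavy chain and a ligand of NK cell receptors, was at 206.27 and 129.87 TPM in VEH and at 102.50 and 95.41 TPM in DHT. Again both DHT libraries lay under the other 14. The log2 fold change was −0.72 ± 0.30 (interval −1.37 to −0.07; adjusted p = 0.16 without the block and 0.0013 with it). HLA-C was at 180.90 and 123.88 TPM in BIC.VEH, 139.61 and 107.94 TPM in BIC.DHT, 203.40 and 147.15 TPM in ENZ.VEH and 173.88 and 126.51 TPM in ENZ.DHT. It was at 192.29 and 126.45 TPM in APA.VEH and 163.89 and 125.69 TPM in APA.DHT. By group mean DHT was lowest (98.96 TPM), then BIC.DHT (123.8 TPM) without overlap, and all later neighbours overlapped up to ENZ.VEH (175.3 TPM). The calls of HLA-B and HLA-C with the block stood when any 1 of the 16 libraries was left out, with adjusted p-values of 0.00017 to 0.024 and 0.00077 to 0.021. Reads shared between class I heavy chain genes are divided by RSEM, so the separate values of HLA-B, HLA-C and HLA-E are uncertain to that extent.

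HLA-E (chr6:30489509-30494194), the non-classical chain seen by NK cell receptors, was at 27.61 and 19.53 TPM in VEH and at 19.77 and 13.70 TPM in DHT. The groups overlapped, since replicate 2 of VEH lay just under replicate 1 of DHT. The log2 fold change was −0.47 ± 0.29 (adjusted p = 0.34 without the block and 0.034 with it). That call was lost when any 1 of the 4 VEH and DHT libraries was left out (adjusted p 0.088 to 0.17) and without either BIC.DHT library (0.050). Elsewhere HLA-E was at 23.24 and 16.59 TPM in BIC.VEH, 21.22 and 15.10 TPM in BIC.DHT, 31.27 and 19.32 TPM in ENZ.VEH and 20.72 and 19.50 TPM in ENZ.DHT. It was at 28.40 and 19.64 TPM in APA.VEH and 20.53 and 19.60 TPM in APA.DHT, and all neighbours in the order of group means overlapped.

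B2M (chr15:44711517-44718145), the light chain shared by all class I molecules, went the opposite way. It was at 574.62 and 590.96 TPM in VEH and at 820.54 and 945.32 TPM in DHT, which were the 2 highest of the 16 libraries. The log2 fold change was 0.60 ± 0.18 (interval 0.21 to 0.98; adjusted p = 0.056 without the block and 0.0089 with it). With median-ratio scaling of the libraries it was 0.72 and passed without the block (adjusted p = 0.046). It also passed without the block when either ENZ.DHT library was left out (adjusted p = 0.027). With the block the call was lost without VEH replicate 1 (0.48, adjusted p = 0.091) and without DHT replicate 2 (0.39, adjusted p = 0.089). B2M was at 583.04 and 551.79 TPM in BIC.VEH, 559.00 and 505.89 TPM in BIC.DHT, 682.17 and 565.68 TPM in ENZ.VEH and 806.59 and 567.82 TPM in ENZ.DHT. It was at 679.80 and 600.74 TPM in APA.VEH and 719.24 and 589.93 TPM in APA.DHT. In the order of means DHT (882.9 TPM) stood above ENZ.DHT (687.2 TPM) without overlap, and the other 7 groups overlapped from one neighbour to the next.

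The opposite movement is plainest as a ratio within each library. B2M was 4.36 and 6.16 times the summed TPM of HLA-B, HLA-C and HLA-E in the 2 DHT libraries, and 1.60 to 2.65 times that sum in the other 14. The sum was 188.0 and 153.5 TPM in DHT and 358.4 and 234.4 TPM in VEH, and leaves out the other class I heavy chains. In BIC.DHT, ENZ.DHT and APA.DHT the mean ratios were 2.45 ± 0.28, 2.44 ± 0.16 and 2.44 ± 0.14 (SD of 2). The ratio is a description chosen with the values known and carries no test.

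**Figure D2:**
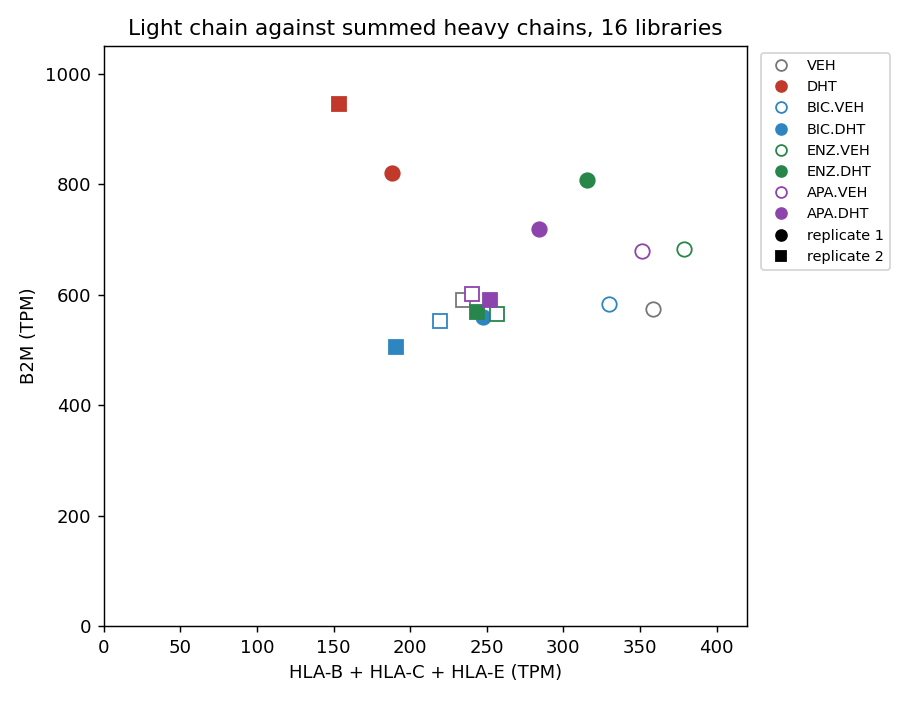
B2M TPM (y axis) against the summed TPM of HLA-B, HLA-C and HLA-E (x axis) in 16 libraries; colour gives the treatment, filled symbols the groups with DHT, circles replicate 1 and squares replicate 2. The 2 DHT libraries stand alone at the upper left, at 188.0 and 153.5 TPM of heavy chains.

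TAP1 and TAP2, the subunits of the peptide transporter, had changes of opposite sign with DHT. Neither change passed, and the difference between the genes was not tested. TAP1 (chr6:32845209-32853704) was at 31.30 and 21.91 TPM in VEH and at 26.00 and 21.32 TPM in DHT, a log2 fold change of −0.15 ± 0.27 (interval −0.74 to 0.44, adjusted p = 0.79). It was at 31.46 and 23.13 TPM in BIC.VEH, 28.63 and 23.71 TPM in BIC.DHT, 38.57 and 24.22 TPM in ENZ.VEH and 27.80 and 23.38 TPM in ENZ.DHT. In APA.VEH it was at 34.98 and 23.35 TPM and in APA.DHT at 26.76 and 23.04 TPM. All groups overlapped for TAP1, whose gene overlaps the antisense gene PSMB8-AS1. TAP2 (chr6:32821831-32838739) was at 9.54 and 10.01 TPM in VEH and at 14.63 and 14.54 TPM in DHT, without overlap, a difference of 0.53 ± 0.27 that did not pass (adjusted p = 0.25, and 0.12 with the block). It was at 10.13 and 9.10 TPM in BIC.VEH, 17.67 and 13.90 TPM in BIC.DHT, 9.07 and 9.90 TPM in ENZ.VEH and 9.36 and 13.59 TPM in ENZ.DHT. In APA.VEH it was at 8.34 and 12.94 TPM and in APA.DHT at 6.41 and 11.94 TPM. The DHT and BIC.DHT libraries were therefore the 4 highest for TAP2, and the ratio of TAP1 to TAP2 ran from 1.47 (DHT replicate 2) to 4.25 (ENZ.VEH replicate 1).

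Tapasin and the trimming enzyme lay lower with DHT. TAPBP (chr6:33299694-33314078) was at 91.30 and 60.72 TPM in VEH and at 61.86 and 44.93 TPM in DHT, a log2 fold change of −0.49 ± 0.27 (adjusted p = 0.29 without the block and 0.031 with it). The groups overlapped, and the call was lost when any 1 of the 4 VEH and DHT libraries was left out (adjusted p 0.052 to 0.22). TAPBP was at 81.13 and 58.93 TPM in BIC.VEH, 69.71 and 51.53 TPM in BIC.DHT, 92.54 and 65.90 TPM in ENZ.VEH and 56.86 and 58.90 TPM in ENZ.DHT. It was at 87.03 and 59.20 TPM in APA.VEH and 63.06 and 59.77 TPM in APA.DHT. ERAP1 (chr5:96760813-96935854) was at 14.12 and 12.24 TPM in VEH and at 9.79 and 7.34 TPM in DHT, without overlap, but the difference of −0.58 ± 0.25 did not pass (adjusted p = 0.18, and 0.099 with the block). It passed with the block when either ENZ.DHT library was left out (adjusted p = 0.035). ERAP1 was at 16.04 and 12.04 TPM in BIC.VEH, 11.44 and 9.34 TPM in BIC.DHT, 15.03 and 12.16 TPM in ENZ.VEH and 7.89 and 12.48 TPM in ENZ.DHT. In APA.VEH it was at 16.26 and 11.75 TPM and in APA.DHT at 7.66 and 10.37 TPM. TAPBP overlaps RGL2, and ERAP1 overlaps CAST and ERAP2 in the annotation. The kit is strand-specific, and the strand setting of the counting is not given in the sources used here.

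NLRC5 (chr16:56989557-57083520) was the faintest of the 9. It was at 2.12 and 0.83 TPM in VEH and at 1.38 and 1.5 TPM in DHT, a log2 fold change of 0.03 ± 0.44 (interval −0.93 to 0.99, adjusted p = 0.98). It was at 1.94 and 1.53 TPM in BIC.VEH, 1.80 and 2.14 TPM in BIC.DHT, 1.60 and 1.16 TPM in APA.VEH and 1.81 and 1.46 TPM in APA.DHT. With enzalutamide it was at 5.96 and 1.39 TPM in ENZ.VEH and 4.76 and 2.18 TPM in ENZ.DHT, so replicate 1 alone held both high values. The differences, 0.77 ± 0.44 without DHT and 0.81 ± 0.44 with it, did not pass (adjusted p = 1 and 0.27). With the block the latter passed when ENZ.VEH replicate 1 (adjusted p = 0.037) or 2 (0.036) was left out.

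The second question was whether an antagonist given with DHT changed the DHT pattern. The 3 comparisons share the 2 DHT libraries, and each is given on its own. With bicalutamide none of the 9 passed without the block (3.13% of all genes did). With it 1 of 9 passed, against 13.3%. That was B2M, which fell by 0.73 on the log2 scale (SE 0.18 and limma adjusted p = 0.052 without the block, 0.14 and 0.0067 with it). That call was lost without DHT replicate 2 (−0.52, adjusted p = 0.062), without BIC.DHT replicate 1 (−0.72, adjusted p = 0.058) and without BIC.DHT replicate 2 (−0.73, adjusted p = 0.055). HLA-B and HLA-C stood 0.50 ± 0.31 and 0.31 ± 0.30 above DHT and passed in neither fit with all libraries (adjusted p = 0.065 and 0.12 with the block). With the block HLA-B passed without either APA.DHT library (0.50, adjusted p = 0.011) and HLA-C without DHT replicate 2 (0.51, 0.030). B2M passed without the block when either ENZ.DHT library was left out (adjusted p = 0.027).

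With enzalutamide none passed without the block (9.65% of all genes did), and HLA-B and HLA-C passed with it, 2 of 9 against 29.2%. HLA-B rose by 1.00 ± 0.31 (adjusted p = 0.067 without the block and 0.0011 with it) and HLA-C by 0.58 ± 0.30 (0.24 and 0.0045). Both calls stood when any 1 of the 16 libraries was left out. B2M was 0.38 lower and did not pass with all libraries (adjusted p = 0.061 with the block). With the block it passed without ENZ.DHT replicate 1 (−0.58, adjusted p = 0.020) and without DHT replicate 1 (−0.58, 0.023), and was at −0.18 without replicate 2 of either group (0.37 and 0.42). Its 2 libraries disagreed, at 806.59 TPM, close to DHT, and at 567.82 TPM.

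With apalutamide none passed without the block (8.36% of all genes did), and HLA-B, HLA-C and B2M passed with it, 3 of 9 against 27.3%. HLA-B rose by 0.92 ± 0.31 (adjusted p = 0.091 without the block and 0.0020 with it), and HLA-C by 0.53 ± 0.30 (0.30 and 0.0076). B2M fell by 0.43 on the log2 scale (SE 0.18; 0.16 and 0.039). The HLA-C call was lost without DHT replicate 1 (0.34, adjusted p = 0.072). The B2M call was lost without DHT replicate 2 (−0.23, 0.30) and without APA.DHT replicate 1 (−0.51, 0.068) or 2 (−0.36, 0.15). It was also lost, at −0.44, without either library of BIC.VEH, BIC.DHT or APA.VEH (0.055 to 0.057). TAP2 was 0.67 lower and did not pass in either fit with all libraries (adjusted p = 0.15 and 0.059), but passed without APA.DHT replicate 2 (−1.07, adjusted p = 0.037 without the block and −1.02, 0.015 with it) and, with the block, without either BIC.DHT library (−0.67, 0.049). For HLA-E, TAP1, TAPBP, ERAP1 and NLRC5 no antagonist with DHT gave a call in either fit with all libraries.

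**Figure D3:**
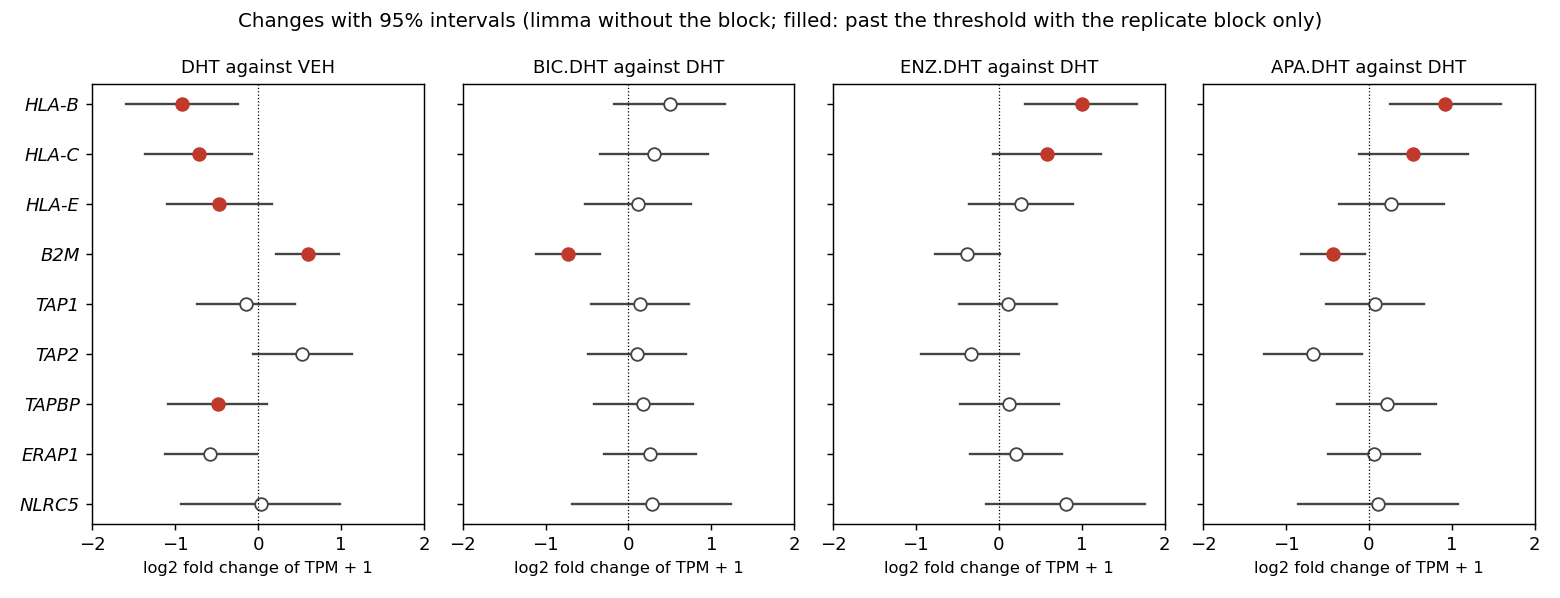
Log2 fold change of TPM + 1 (x axis) of the 9 genes in DHT against VEH and in each antagonist with DHT against DHT; lines are 95% intervals of limma without the block, and filled points pass an adjusted p of 0.05 with the replicate block. No gene passes without the block; HLA-B lies at −0.92 with DHT and at 0.50, 1.00 and 0.92 with the antagonists, and B2M at 0.60 and then at −0.73, −0.38 and −0.43.

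Whether the response to DHT itself differed with an antagonist present was tested as an interaction. Without the block none of the 9 passed for bicalutamide, enzalutamide or apalutamide, where 0.986%, 1.63% and 1.42% of all genes did. With the block, where 6.39%, 9.91% and 10.1% of all genes passed, none of the 9 did for bicalutamide, HLA-B did for enzalutamide (0.85 ± 0.43, adjusted p = 0.46 without the block and 0.039 with it), and HLA-B (0.81 ± 0.43; 0.47 and 0.046) and HLA-C (0.60 ± 0.42; 0.60 and 0.045) did for apalutamide. Of the 16 fits that each left out 1 library, 3, 5 and 3 kept these calls, and adjusted p-values went up to 0.13, 0.14 and 0.17. B2M gave −0.69 ± 0.25 for bicalutamide, −0.47 ± 0.25 for enzalutamide and −0.57 ± 0.25 for apalutamide, none past the threshold with the block and all libraries (0.065, 0.16 and 0.093). With 1 library left out it passed in 3 of 16 fits for bicalutamide (lowest adjusted p = 0.030) and in 3 of 16 for apalutamide (0.043). HLA-C passed without DHT replicate 2 for bicalutamide (0.63, 0.042) and enzalutamide (0.70, 0.021).

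Within an antagonist DHT moved no member past the threshold in either fit. Across all genes 0%, 0.00601% and 0.00601% passed with bicalutamide, enzalutamide and apalutamide without the block, and 0%, 0.00601% and 0.024% with it. HLA-B differed between with and without DHT by −0.37 ± 0.31 under bicalutamide (interval −1.05 to 0.30), −0.07 ± 0.31 under enzalutamide and −0.11 ± 0.31 under apalutamide. TAP2 differed by 0.65 ± 0.27 under bicalutamide (interval 0.06 to 1.25) and by 0.53 ± 0.27 without an antagonist. ERAP1 differed by −0.58 ± 0.25 under apalutamide (−1.14 to −0.02) and by −0.58 ± 0.25 without an antagonist. Under an antagonist only these had an unadjusted limma p under 0.05, where 1.41%, 3.25% and 2.45% of all genes did. The antagonists without DHT also gave no call among the 9 against VEH, where 0%, 0% and 0.00601% of all genes passed without the block and 0.018%, 0% and 0.012% with it. The differences from VEH lay between −0.23 (HLA-E, BIC.VEH) and 0.77 (NLRC5, ENZ.VEH).

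Enzalutamide and apalutamide are closely related diarylthiohydantoins, whereas bicalutamide is built differently, so the 3 drugs were compared pair by pair at 10 µM and 48 h, 3 pairs with DHT and 3 without. None of the 9 genes passed in any of the 6 pairs with or without the block. Over all genes 0.00601%, 0% and 0.00601% passed without the block for enzalutamide against bicalutamide, apalutamide against bicalutamide and apalutamide against enzalutamide with DHT, and 0.012%, 0.0541% and 0.00601% with it. Without DHT these were 0%, 0.012% and 0.00601%, and 0.00601%, 0.0842% and 0.00601% with the block. With DHT, HLA-B was 0.50 higher with enzalutamide than with bicalutamide (interval −0.18 to 1.17), 0.42 higher with apalutamide than with bicalutamide (−0.25 to 1.10) and 0.07 lower with apalutamide than with enzalutamide (−0.75 to 0.60). B2M was 0.35 higher with enzalutamide than with bicalutamide (−0.04 to 0.74) and 0.29 higher with apalutamide (−0.10 to 0.68). The lowest unadjusted p among the members was 0.016, for TAP2 between apalutamide and bicalutamide with DHT (−0.77 ± 0.27, interval −1.36 to −0.18), which came to an adjusted p of 1, and of 0.30 with the block. A p that misses the threshold does not show that the drugs act alike.

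The rest of the pathway was read from lists of companions, whose counts with DHT stand against 10.3% of all genes called without the block, and 10.6% called higher and 16.8% lower with it. Of 13 peptide generation genes PSME1, a subunit of the proteasome activator PA28, passed with DHT: it was at 225.73 and 234.66 TPM in VEH and at 137.41 and 144.25 TPM in DHT, without overlap (−0.71 ± 0.11, adjusted p = 0.0027). It was higher than DHT with enzalutamide (0.79 ± 0.11, adjusted p = 0.0017) and apalutamide (0.77 ± 0.11, 0.0021), and with bicalutamide in the fit with the block (0.46 ± 0.11, adjusted p = 0.053 without the block and 0.0076 with it). With the block 3 of the list were higher with DHT (PSMB5, PSMB6 and THOP1) and PSME1 alone was lower. The immunoproteasome subunits PSMB8 and PSMB9 were faint, at 0.41 to 2.07 and 0.49 to 2.29 TPM over the 16 libraries, while PSMB10 was at 34.43 to 51.94 TPM. ERAP2, a second trimming enzyme, was at 0.37 to 1.04 TPM. Of 6 loading and quality control genes none passed with DHT in either fit. The chaperone CALR was at 716.04 to 1013.87 TPM and the tapasin relative TAPBPL at 11.16 to 30.54 TPM.

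Among 9 tested genes of 12 other class I and class I-like chains, AZGP1, a soluble class I-like lipid-binding protein secreted by the prostate, passed. It was at 39.47 and 38.96 TPM in VEH and at 279.29 and 334.64 TPM in DHT (2.93 ± 0.19, adjusted p = 1.1e-05). With the block HFE (−0.74, adjusted p = 0.026) and MR1 (−0.62, 0.030) were also lower. Of 4 tested turnover genes none passed without the block and SUSD6 was lower with it (−0.81, 0.025). Of 18 tested transcription control genes RFXANK, a subunit of the RFX complex, passed (−0.47 ± 0.13, adjusted p = 0.036). It was at 73.24 and 85.72 TPM in VEH and at 51.68 and 62.28 TPM in DHT. With the block 5 of the list were lower and 1 higher (EZH2, a polycomb methyltransferase; 0.83, adjusted p = 2e-04). IRF1 was 1 of those 5, at 7.83 and 5.31 TPM in VEH and at 4.64 and 3.25 TPM in DHT. Its change was −0.61 ± 0.27 (limma adjusted p = 0.18 without the block and 0.045 with it). Over all libraries IRF1 was at 3.25 to 8.59 TPM and RFX5 at 46.75 to 88.55 TPM, and CIITA, the class II transactivator, at no more than 0.10 TPM. Of 7 tested interferon signalling genes JAK2 passed (−0.62 ± 0.16, adjusted p = 0.033) and 2 were lower with the block, with JAK1 at 3.43 to 5.18 TPM.

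Of 19 tested interferon-stimulated genes 3 were called lower with DHT without the block and none was called higher. BST2 (tetherin, which holds budding virus at the membrane) changed by −1.41 ± 0.20 (limma adjusted p = 0.0015). It was at 4.41 and 4.59 TPM in VEH and at 1.11 and 1.04 TPM in DHT. IFI6 changed by −1.20 ± 0.18 (0.0022). UBE2L6 (the ISG15-conjugating enzyme), named because it completes the count, changed by −0.94 ± 0.21 (0.018). It was at 3.8 and 2.6 TPM in VEH and at 1.58 and 0.82 TPM in DHT. The list's median was −0.42 against −0.10 over all genes. With the block 7 were lower and 1 was higher (OAS3, 1.04, limma adjusted p = 0.0017). OAS3 was at 2.14 and 2.95 TPM in VEH and at 5.08 and 7.61 TPM in DHT. All genes were called at 10.3% without the block, and 16.8% were lower and 10.6% higher with it. Class II genes split. HLA-DMA, a peptide editor of class II molecules, was at 10.00 and 10.19 TPM in VEH and at 29.91 and 26.24 TPM in DHT (1.39 ± 0.13, adjusted p = 0.00011), and HLA-DQB1 was at 14.17 and 10.67 TPM against 6.41 and 5.43 TPM (−0.95 ± 0.21, 0.015). Those were the 2 of 4 tested class II genes called, and with the block 2 were lower and 1 higher. The part played by these genes in the members' changes was not tested.

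**Figure D4:**
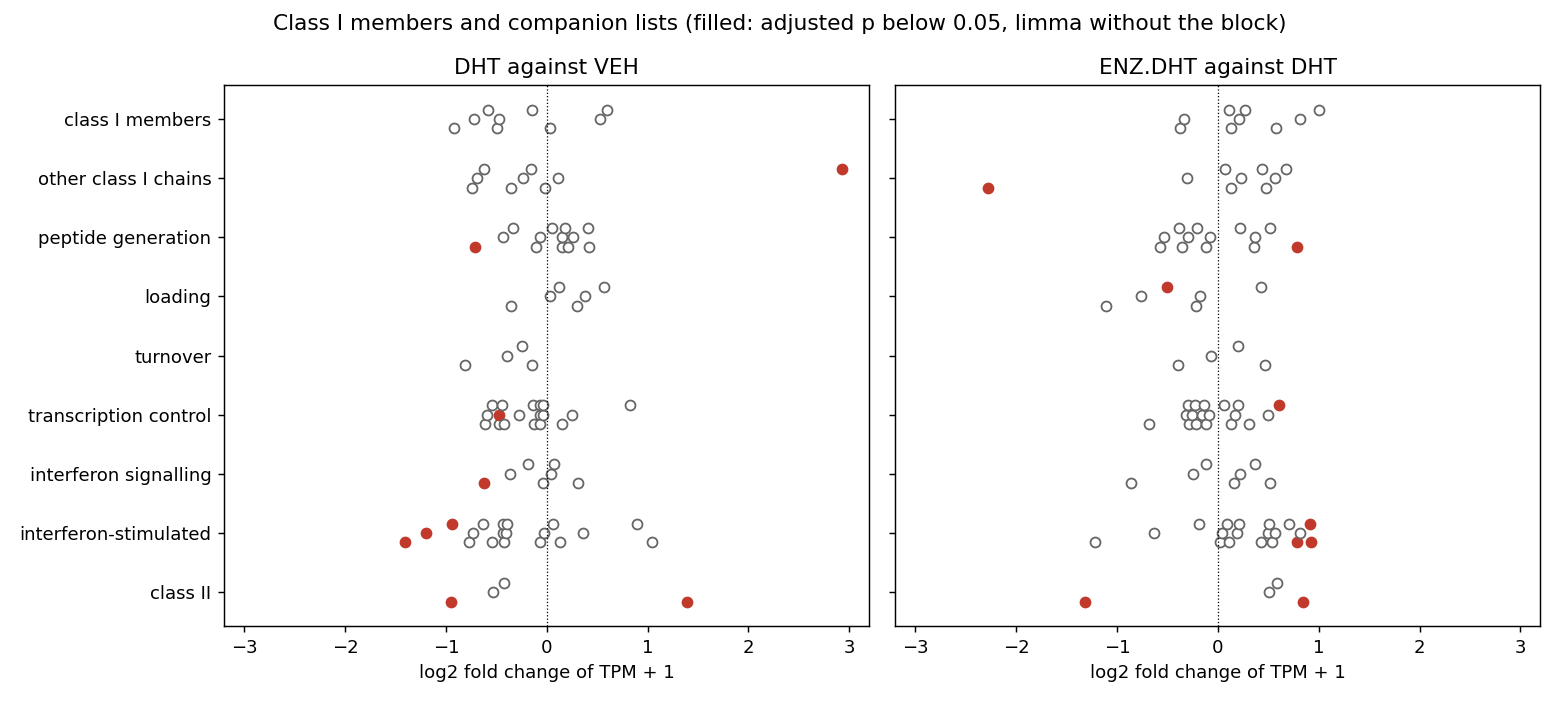
Log2 fold change of TPM + 1 (x axis) of the 9 class I genes and of the tested companion genes by list (rows), in DHT against VEH (left) and in ENZ.DHT against DHT (right); each point is a gene, and filled points pass an adjusted p of 0.05 in limma without the block. AZGP1 at 2.93 and HLA-DMA at 1.39 lie farthest right with DHT, and both lie left of 0 with enzalutamide, at −2.28 and −1.32.

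How alike the 9 patterns were over the 8 group means of log2(TPM + 1) is given as a description, since the points share libraries and their replicate shift. HLA-B and HLA-C had a Pearson r of 0.96, HLA-C and HLA-E 0.92, and TAPBP and ERAP1 0.91. TAP1 and TAP2 had −0.43, and TAP2 had −0.80 with HLA-B and with HLA-C. B2M was negative with every other member except TAP2 (0.24). Among 11063 genes with a mean of at least 5 TPM the nearest were CAMLG for HLA-B (r = 0.993), RNF208 for HLA-C (0.997), SHB for HLA-E (0.985) and THAP4 for B2M (0.967). For TAP1, TAP2, TAPBP and ERAP1 they were EPHX1 (0.964), HMGN5 (0.922), SPTLC1 (0.997) and RAB3GAP2 (0.990), and for NLRC5 HMOX1 (0.969), followed by ATF4 (0.954).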

How the data were processed

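Poly(A) RNA of 16 LNCaP libraries was sequenced with a stranded kit. Per the labels and the study's methods, the authors trimmed reads (Trim Galore 0.6.5, FastQC 0.11.9), aligned them to GRCh38 with STAR 2.7.2b and estimated levels with RSEM 1.3.3. The deposited values are TPM per gene symbol, 1 column per library, with column totals of 976190 to 983114 and 0 columns of other samples. TPM is scaled to a fixed total, so abundant transcripts lower all others.

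Groups and replicate numbers come from the labels. Genes with at least 1 TPM in 2 libraries were tested with limma 3.58.1 (R 4.3.3, trend option) on log2(TPM + 1), with all 8 groups in 1 fit, 19 contrasts and Benjamini-Hochberg adjustment over 16636 genes, at 0.05; fold changes on this scale understate changes of low genes. The study's methods give no test between treatments. Replicate numbers were checked by correlating the deviations of replicate 1 between groups. Of 28 correlations 28 were over 0.1 (0.204 to 0.635), so the numbers were taken to pair libraries. The sample titles share a number among all replicate 1 libraries and another among all replicate 2 libraries. They do not say what it marks, so the pairing rests on the data. The fit with the replicate block is given where it changes a call. The fit without the block was tested on simulated data with independent noise, and the fit with the block was not.

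Named were the 9 members, fixed companions (1 of which is not reported here), and from each list up to 2 called genes with the highest and 2 with the lowest change with DHT. The members and lists were chosen with earlier results of these data known. Gene positions and promoters are RefSeq, GRCh38.p14. Figures were drawn with matplotlib 3.10.9. Alternatives were a pseudocount of 0.1, filters at 5 TPM or none, median-ratio scaling, TPM without mitochondrial genes, no trend option, 2-group fits, the block, and each library left out.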

Additional observations from a re-analysis of the deposited data

Results flagged for a closer look

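A difference in the response to DHT with and without an antagonist passed the threshold for HLA-B under enzalutamide (0.85 on the log2 scale) and apalutamide (0.81). For HLA-C it passed under apalutamide (0.60). Each call came from the interaction term with the replicate block only (limma adjusted p = 0.039, 0.046 and 0.045), not without the block (0.46, 0.47 and 0.60). With the block 1 of the 9 members passed for enzalutamide, against 9.91% of all genes. For apalutamide 2 of the 9 passed, against 10.1%. Each of the 3 calls was lost in most of the fits that left out 1 library.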

How the results depend on the processing

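No member past the threshold, in the fit as reported or with the replicate block, changed direction under any alternative (0 of 588 values). Many of the values in this count and the next could not change sign. With all libraries, the block and the trend option leave a fold change as it is. So does leaving out a library outside the groups compared. The counts are therefore no measure of how stable the directions are. Over all members and comparisons 327 of 7163 values changed sign, none of them past the threshold; with DHT against VEH these were TAP1 (−0.15, and 0.10 without VEH replicate 1) and NLRC5 (0.03, and as low as −0.36 without VEH replicate 2). The replicate block moved the count of members past the threshold from 0 to 5 for DHT against VEH, 1 for BIC.DHT, 2 for ENZ.DHT and 3 for APA.DHT against DHT, and to 1 and 2 for the interactions of enzalutamide and apalutamide with DHT. The block changed no other call of a member. Over all genes 27.4%, 13.3%, 29.2% and 27.3% passed with the block in these comparisons, and 9.91% and 10.1% in these interactions. With all libraries in the fit and no block, a member passed only for DHT against VEH with median-ratio scaling (1, B2M) and for BIC.DHT with a filter of 5 TPM (1, B2M). Leaving out each of the 16 libraries in turn without the block gave 0 in each comparison, except a range of 0 to 1 for DHT against VEH and for BIC.DHT against DHT (B2M, without either ENZ.DHT library) and for APA.DHT against DHT (TAP2). Further settings were chosen after seeing the data. The block with median-ratio scaling gave 5, 2, 2 and 3 for the comparisons in the order above, and 2 and 2 for the interactions. In the same comparisons 5020, 2742, 5516 and 5280 of all 16636 genes passed. The block without mitochondrial genes gave 5, 1, 3 and 3, and 1, 2 and 2 for the interactions of bicalutamide, enzalutamide and apalutamide. There 4623, 2364, 5085 and 4819 of 16621 genes passed in the comparisons. Calls over all genes were not counted for the interactions in these added settings. The block with each library left out gave 2 to 6 for DHT against VEH (6 without either ENZ.DHT library), 0 to 2 for BIC.DHT, 2 to 3 for ENZ.DHT and 2 to 3 for APA.DHT, and 0 to 1, 0 to 1 and 0 to 3 for the interactions of bicalutamide, enzalutamide and apalutamide. Without the block, adjusted p-values for DHT against VEH ran from 0.073 to 0.42 for HLA-B, 0.11 to 0.62 for HLA-C and 0.027 to 0.27 for B2M. The median change of all tested genes with DHT was −0.10 as deposited, 0 with median-ratio scaling and −0.07 without mitochondrial genes, and HLA-B stood at −0.92, −0.80 and −0.88. Why the settings differ was not tested, and 2 replicates per group and an unknown depth limit every comparison.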
